A study of Mus musculus with 10 samples.

Results

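The 10 genes described here encode enzymes and receptors of the prostaglandin and leukotriene pathways, and were measured in macrophages sorted from mouse mammary tumours. They are the cyclooxygenases Ptgs1 and Ptgs2, the terminal prostanoid synthases Ptges, Hpgds and Tbxas1, the prostaglandin E2 receptors Ptger2 and Ptger4, and the leukotriene synthesis genes Alox5, Alox5ap and Ltc4s. They were taken by gene symbol from a list of pathway genes, and each symbol matched 1 locus of the 46956 loci that carry a symbol. Tumours were grown from 4T1 cells, a mouse mammary carcinoma line, placed in the mammary fat pads of BALB/cJ mice. The 5 samples of the JHU083 group came from mice given 1 mg/kg of this compound, a prodrug of the glutamine antagonist 6-diazo-5-oxo-L-norleucine, from day 7 to day 13, and the 5 samples of the vehicle group from mice given PBS. On day 14 live cells were sorted as CD45+, CD11b+ and F4/80+, and negative for CD8, Ly6C and Ly6G. Mice of both groups were of 1 strain and carried the same tumour line, and the labels name no genotype. The labels do not say whether each sample was a separate mouse, so the p-values measure the spread between these samples, which may in part be technical.

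Arachidonic acid, released from membrane phospholipids by phospholipases, is the shared substrate of both pathways. Cyclooxygenases turn it into prostaglandin H2, from which terminal synthases make prostaglandin E2, prostaglandin D2 or thromboxane A2. The 5-lipoxygenase branch, in which Alox5 works with its helper protein Alox5ap, makes leukotriene A4, which is turned into leukotriene B4 by Lta4h or into the cysteinyl leukotriene C4 by Ltc4s. Macrophages are known to make products of both branches, and the prostaglandin E2 receptors EP2 and EP4 raise cyclic AMP in them.

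The 250 bases upstream of the RefSeq start (GRCm38.p6) are shown for 3 of the genes whose JHU083 samples all lay above all vehicle samples, because they show how unlike the start regions of genes that rose together were. Those of the receptor genes Ptger2 (chr14:44987861-44988110, plus strand) and Ptger4 (chr15:5244188-5244437, minus strand) differed in base composition, with 38.0% G and C in the first and 66.8% in the other. The third is that of Alox5 (chr6:116461179-116461428, minus strand), with 52.8%. Ptger2 and Ptger4 had the lowest and the highest share of all 9 promoters found. The windows of Tbxas1 and Ltc4s, which also had all JHU083 samples above all vehicle samples, are not shown and had 43.6% and 57.6%. Capitals mark the letters GAGGAA, the core bound by the myeloid factor PU.1, and GGGCGG, the Sp1 box, or the complement of either.
Ptger2: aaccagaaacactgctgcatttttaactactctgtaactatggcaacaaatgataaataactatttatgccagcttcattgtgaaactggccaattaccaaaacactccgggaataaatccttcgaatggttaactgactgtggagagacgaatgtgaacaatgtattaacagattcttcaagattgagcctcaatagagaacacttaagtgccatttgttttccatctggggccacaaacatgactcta
Ptger4: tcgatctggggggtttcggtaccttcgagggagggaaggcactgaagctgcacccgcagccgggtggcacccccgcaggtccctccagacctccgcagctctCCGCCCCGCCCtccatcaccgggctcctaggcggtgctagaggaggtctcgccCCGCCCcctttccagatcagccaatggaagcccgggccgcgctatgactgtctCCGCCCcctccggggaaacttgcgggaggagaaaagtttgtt
Alox5: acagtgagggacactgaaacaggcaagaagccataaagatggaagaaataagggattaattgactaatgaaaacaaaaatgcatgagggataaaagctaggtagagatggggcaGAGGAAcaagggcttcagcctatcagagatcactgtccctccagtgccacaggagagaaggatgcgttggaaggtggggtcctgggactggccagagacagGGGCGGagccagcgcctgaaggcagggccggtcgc
The Ptger2 window held neither motif. The Ptger4 window held the Sp1 box 4 times, each time on the opposite strand, and 2 of these matches shared 1 base. In the Alox5 window the PU.1 core lay 131 to 136 bases and the Sp1 box 30 to 35 bases upstream of the start. Promoters were found for 9 of the 10 genes, all but Alox5ap. On either strand, GAGGAA was in 6 of these 9 (Alox5, Hpgds, Ptges, Ptgs1, Ptgs2 and Tbxas1) and in 23.25% of 32817 RefSeq promoters of the same length, and GGGCGG was in 4 of 9 (Alox5, Ptger4, Ptges and Ptgs2) and in 32.72%. The cyclic AMP response element core TGACG was in 0 of 9 and in 17.75%, the AP-1 site TGANTCA in 1 of 9 (Tbxas1) and in 6.753%, and the NF-kappaB consensus in 0 of 9 and in 1.21%. A match of letters is not a measured binding site, and these letters were looked for in this window only.

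Each library held between 11147870 and 15740701 fragments in loci with a symbol (12744917 ± 1254060 in vehicle and 14617560 ± 778229 in JHU083, SD, n = 5 each), so that 3 fragments, the limit a count of 0 allows, came to 0.191 to 0.269 CPM (counts per 1e6 counts of a library). Levels below are CPM, with library totals scaled by the trimmed mean of M values (TMM), or, between genes, the deposited values per transcript length, read as FPKM. Of 12500 loci with enough counts to test, 2296 were higher and 2293 lower in JHU083 (edgeR quasi-likelihood test, Benjamini-Hochberg adjusted p under 0.05). Scaled by library totals only, 1564 were higher and 3141 lower, so that the share of calls that were higher moved from 50.03% to 33.24%, and the median log2 fold change of all loci moved from 0.01 to -0.07. The ribosomal loci Rn18s-rs5 and Gm42418 had a value of 0 in 3 vehicle and in 2 JHU083 libraries, and held 2.87% to 5.59% of fragments in the others. For the 10 pathway genes, values within each of these sets are therefore given beside the pooled ones. The macrophage label was met by its markers: summed over 10 genes such as Adgre1, Csf1r and C1qa, they reached 18932 to 24145 CPM in vehicle and 24187 to 31986 CPM in JHU083 libraries. Of these 10 genes, 5 were called higher, among them Adgre1, Csf1r, Mertk and Lyz2, and 5 were not called (Cd68, C1qa, C1qb, C1qc and Fcgr1). With Lyz2 left out of the sum the groups overlapped, at 12745 to 16575 CPM and 15315 to 19518 CPM. Such sums without 1 gene were chosen after the values were seen. Ly6g, the neutrophil marker used to exclude cells, had at most 2 fragments in any library.

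Of the 10 pathway genes, 6 were higher in JHU083 (Ptger2, Ltc4s, Alox5, Ptger4, Hpgds and Tbxas1), 2 were lower (Ptges and Alox5ap), and the cyclooxygenases Ptgs1 and Ptgs2 did not pass the test. All 10 had enough counts to be tested. Over all loci tested, 36.7% were called, 18.4% higher and 18.3% lower. In 5 of the 10 all JHU083 samples lay above all vehicle samples, and in 0 all lay below. Over all loci the groups did not overlap in 22.3%, with JHU083 above in 11.2% and below in 11.1%. The median log2 fold change of the 10 genes was 0.38, beside 0.01 over all loci tested.

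**Figure D1:**
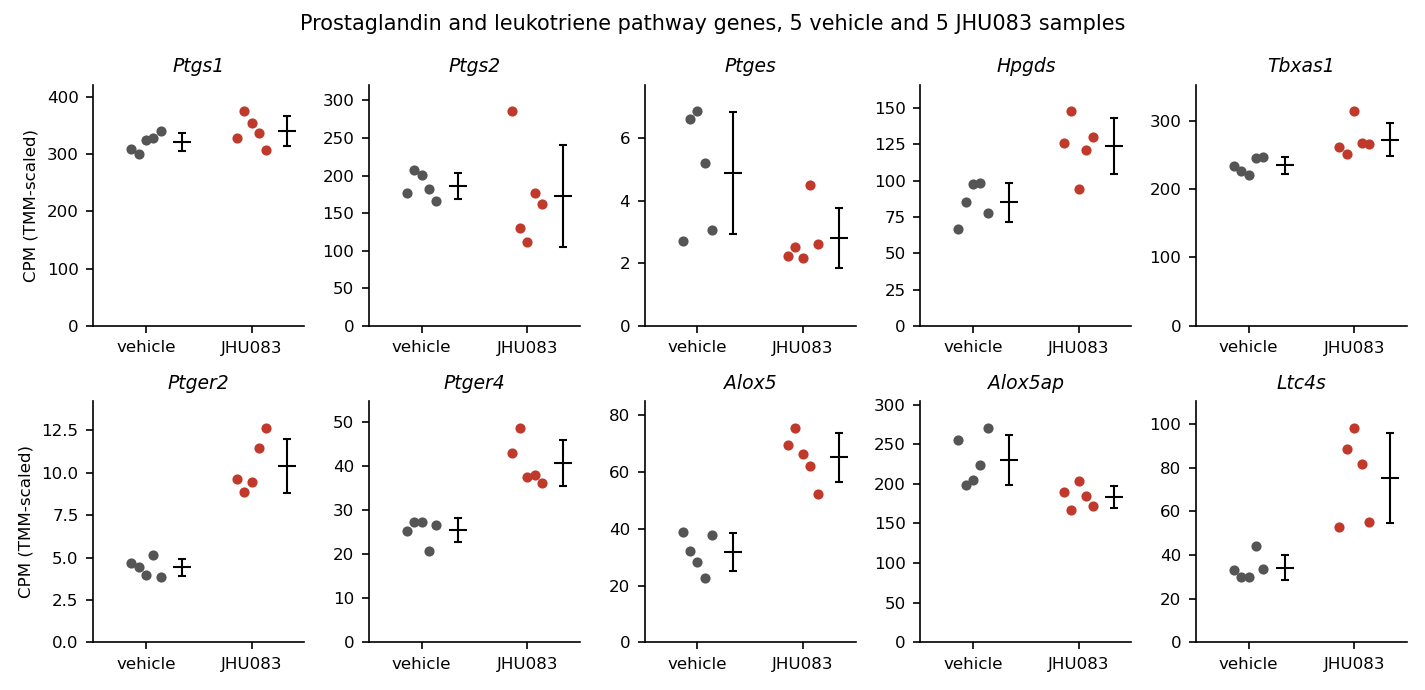
CPM (TMM-scaled, linear axes from 0) of the 10 pathway genes in the 5 vehicle and 5 JHU083 samples. Points are samples, the horizontal bar is the mean and the error bar the SD. Ptger2, Ptger4, Alox5, Ltc4s and Tbxas1 have all JHU083 points above all vehicle points, while Ptgs2 has its highest and its lowest points in the JHU083 group.

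Ptgs1 encodes the constitutive cyclooxygenase (locus XLOC_018915, chr2:36230426-36252272, plus strand, GRCm38). In vehicle replicates 1 to 5 it was at 309, 300, 326, 329 and 341 CPM, and in JHU083 replicates at 328, 375, 355, 337 and 308 CPM. The groups overlapped, with means of 321 ± 16.0 and 341 ± 25.7 CPM (SD, n = 5). The log2 fold change was 0.09 (SE 0.07, 95% interval -0.06 to 0.23, edgeR adjusted p = 0.355).

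Ptgs2 encodes the inducible cyclooxygenase (XLOC_001190, chr1:150100031-150108227, plus strand). Vehicle samples were at 176, 207, 201, 182 and 166 CPM and JHU083 samples at 285, 130, 112, 177 and 162 CPM. JHU083 replicate 1 was the highest of all 10 samples, whereas replicates 2, 3 and 5 were below every vehicle sample, and the SD was 67.8 CPM around 173 in JHU083 against 17.0 CPM around 186 in vehicle. The log2 fold change was -0.11 (SE 0.19, 95% interval -0.52 to 0.31, edgeR adjusted p = 0.693). It was decided by single libraries. Without JHU083 replicate 1 it was -0.36 and was called lower (adjusted p = 0.0405), and without JHU083 replicate 3 it was 0.02.

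Ptges encodes the inducible prostaglandin E synthase, the last step to prostaglandin E2 (XLOC_020572, chr2:30889471-30929863, minus strand). It was at 2.72, 6.63, 6.86, 5.21 and 3.05 CPM in vehicle and at 2.25, 2.54, 2.16, 4.51 and 2.62 CPM in JHU083. JHU083 replicates 1, 2, 3 and 5 were below every vehicle sample, while replicate 4 lay within the vehicle range. The means were 4.90 ± 1.94 and 2.82 ± 0.967 CPM (SD, n = 5), which came to -0.80 on the log2 scale (SE 0.29, 95% interval -1.42 to -0.17, edgeR adjusted p = 0.0448). The gene rested on 29 to 91 fragments per library, and the call was lost without any 1 of 7 libraries (vehicle replicate 2, 3 or 4, or JHU083 replicate 1, 2, 3 or 5), where the log2 fold change lay between -1.02 and -0.64 over all 10 such fits. Summed markers of tumour epithelium (Epcam, keratins and others, 8 genes, all 8 called lower) ran from 282 to 610 CPM in vehicle and from 100 to 213 CPM in JHU083, and the vehicle replicates lowest in Ptges, 1 and 5, were also lowest in that sum, at 389 and 282 CPM. Vehicle replicates 1 and 5 were also lowest in the summed fibroblast, endothelial, monocyte and eosinophil markers, so this was not particular to tumour epithelium. The sort for CD45+ cells is meant to remove epithelial cells, and the part of RNA of any of these cell types in the Ptges result was not tested. In such sorted bulk samples, fewer cells of a type and less RNA per cell cannot be told apart.

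Hpgds encodes hematopoietic prostaglandin D synthase (XLOC_032786, chr6:65117293-65144908, minus strand). Vehicle samples were at 66.6, 85.6, 97.4, 98.3 and 77.8 CPM and JHU083 samples at 126, 148, 94.2, 121 and 130 CPM. All JHU083 samples but replicate 3 were above every vehicle sample, with means of 85.1 ± 13.4 and 124 ± 19.3 CPM. The gene rose by a log2 fold change of 0.54 (SE 0.12, 95% interval 0.27 to 0.81, edgeR adjusted p = 0.00414). Within the libraries with both ribosomal loci at 0 the value was 0.34 and was not called (adjusted p = 0.215), and within the others it was 0.70.

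Tbxas1 encodes thromboxane A synthase (XLOC_031020, chr6:38875404-39084585, plus strand). It was at 234, 226, 220, 246 and 247 CPM in vehicle and at 262, 251, 314, 268 and 266 CPM in JHU083. Every JHU083 sample was above every vehicle sample, by a small margin except in replicate 3, and the means were 234 ± 11.9 and 272 ± 24.1 CPM. The log2 fold change of 0.21 (SE 0.07, 95% interval 0.06 to 0.37) passed with an edgeR adjusted p of 0.0326. The call was lost without vehicle replicate 1, 2 or 3 or without JHU083 replicate 4 (0.16 to 0.24 over all 10 such fits), and it was lost with scaling by library totals only, where the value was 0.13. Platelets also carry this enzyme. The summed platelet and megakaryocyte markers overlapped between groups, at 120 to 152 CPM in vehicle and 91.2 to 203 CPM in JHU083, with Gp6 at 0 in all 10 libraries. Nearly all of this sum was Pf4. Without Pf4 it was 2.67 to 4.21 CPM in vehicle and 3.91 to 6.88 CPM in JHU083, where 4 of 5 samples were above all vehicle samples, and Ppbp, 1 of 3 genes tested, was called higher. The part of platelet RNA in the Tbxas1 result was not tested.

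Both receptor genes rose. Ptger2 encodes EP2 (XLOC_011081, chr14:44988195-45003820, plus strand), and vehicle samples were at 4.69, 4.42, 4.00, 5.13 and 3.84 CPM against 9.61, 8.84, 9.47, 11.5 and 12.6 CPM in JHU083. The lowest JHU083 sample was thus well above the highest vehicle sample. The means were 4.41 ± 0.522 and 10.4 ± 1.59 CPM (SD, n = 5), which came to 1.24 on the log2 scale (2.36-fold, SE 0.14, 95% interval 0.93 to 1.54, edgeR adjusted p = 2.29e-05). It rested on 49 to 193 fragments per library. Ptger2 had the largest increase of the 10 genes and, in vehicle, the lowest level per transcript length.

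Ptger4 encodes EP4 (XLOC_013115, chr15:5206661-5244187, minus strand). It was at 25.3, 27.2, 27.4, 20.8 and 26.6 CPM in vehicle and at 43.0, 48.7, 37.6, 38.0 and 36.1 CPM in JHU083. The groups did not overlap, and vehicle replicate 4 lay apart below the other 4 vehicle samples. The means were 25.5 ± 2.74 and 40.7 ± 5.18 CPM, a log2 fold change of 0.67 (1.60-fold, SE 0.10, 95% interval 0.45 to 0.90, edgeR adjusted p = 0.000255). Whether the counting used strand is not given in the sources used here. Exons of opposite-strand genes overlap both: Gm15937 by 1015 and Ttc33 by 82 of the 6648 exonic bases of Ptger4, and Gm17173 by 246 and Gm49364 by 144 of the 5193 of Ptger2.

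In the leukotriene branch the 3 genes did not move the same way. Alox5 encodes 5-lipoxygenase, which makes leukotriene A4 (XLOC_033351, chr6:116410077-116461178, minus strand). Vehicle samples were at 38.8, 32.3, 28.2, 22.7 and 37.7 CPM and JHU083 samples at 69.5, 75.6, 66.4, 62.3 and 52.1 CPM. No sample of one group reached the range of the other, with means of 31.9 ± 6.71 and 65.2 ± 8.76 CPM (SD, n = 5). Alox5 rose by a log2 fold change of 1.03 (2.04-fold, SE 0.14, 95% interval 0.73 to 1.32, edgeR adjusted p = 9.18e-05).

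Alox5ap encodes FLAP, the membrane protein that presents arachidonate to 5-lipoxygenase (XLOC_029220, chr5:149264767-149288153, plus strand). It was at 255, 198, 205, 224 and 271 CPM in vehicle and at 189, 168, 203, 184 and 172 CPM in JHU083. The groups overlapped in that JHU083 replicate 3 was above vehicle replicate 2, the lowest vehicle sample, and the other 4 JHU083 samples were below all vehicle samples. The means were 231 ± 31.5 and 183 ± 14.3 CPM, and the gene fell, with a log2 fold change of -0.33 (0.795-fold, SE 0.09, 95% interval -0.53 to -0.13, edgeR adjusted p = 0.0133). On the deposited FPKM, with limma on log2(FPKM + 1), the value was -0.28 and did not pass. Exons of Gm19719 on the other strand cover 189 of its 1420 exonic bases.

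Ltc4s encodes leukotriene C4 synthase, which joins leukotriene A4 to glutathione (XLOC_006661, chr11:50236461-50238616, minus strand). Vehicle samples were at 33.1, 30.0, 29.8, 44.0 and 33.8 CPM, and JHU083 samples were at 52.8, 88.8, 98.3, 81.6 and 55.0 CPM. All JHU083 samples were above all vehicle samples, replicates 1 and 5 by the least. The means were 34.1 ± 5.78 and 75.3 ± 20.4 CPM, a log2 fold change of 1.14 (2.21-fold, SE 0.17, 95% interval 0.77 to 1.51, edgeR adjusted p = 0.000202). Exons of Gm26542 on the other strand cover 268 of its 1014 exonic bases.

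Eosinophils, mast cells and basophils are known for high Alox5 and Ltc4s. Their summed markers overlapped between groups: 3.76 to 10.6 CPM in vehicle and 6.71 to 17.5 CPM in JHU083 for 8 eosinophil genes (1 of 3 tested, Siglecf, called higher), and 34.5 to 38.2 CPM and 27.1 to 53.4 CPM for 11 mast cell and basophil genes (2 of 8 tested called higher and 2 lower). The eosinophil granule gene Prg3 was at 0 in all libraries and Epx had at most 5 fragments, while the granule gene Prg2 had 8 to 68 and the receptor gene Ccr3 7 to 59, both most in JHU083 replicate 4 and neither called (log2 fold changes 0.81 and 0.29). JHU083 replicate 4 had the highest eosinophil, mast cell and basophil, neutrophil and dendritic cell sums of all libraries. Its Ltc4s and Alox5 were within the range of the other JHU083 samples. Neutrophil markers summed to 98.5 to 111 CPM in vehicle and 99.9 to 152 CPM in JHU083, and most of this sum was Csf3r. Without Csf3r it was 42.1 to 55.6 CPM in vehicle, and in JHU083 it was below that range in 4 samples (17.0 to 32.0 CPM) and above it in replicate 4 (71.8 CPM). Dendritic cell markers summed to 8.07 to 9.75 CPM in vehicle and 11.1 to 26.1 CPM in JHU083. This separation rested on Cd209a, the 1 gene of 4 tested that was called, since without it the sums overlapped, at 6.11 to 8.46 CPM and 5.90 to 14.3 CPM, and Flt3, Zbtb46 and Ccr7 were not called. The part of cell composition in the Alox5 and Ltc4s results was not tested.

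**Figure D2:**
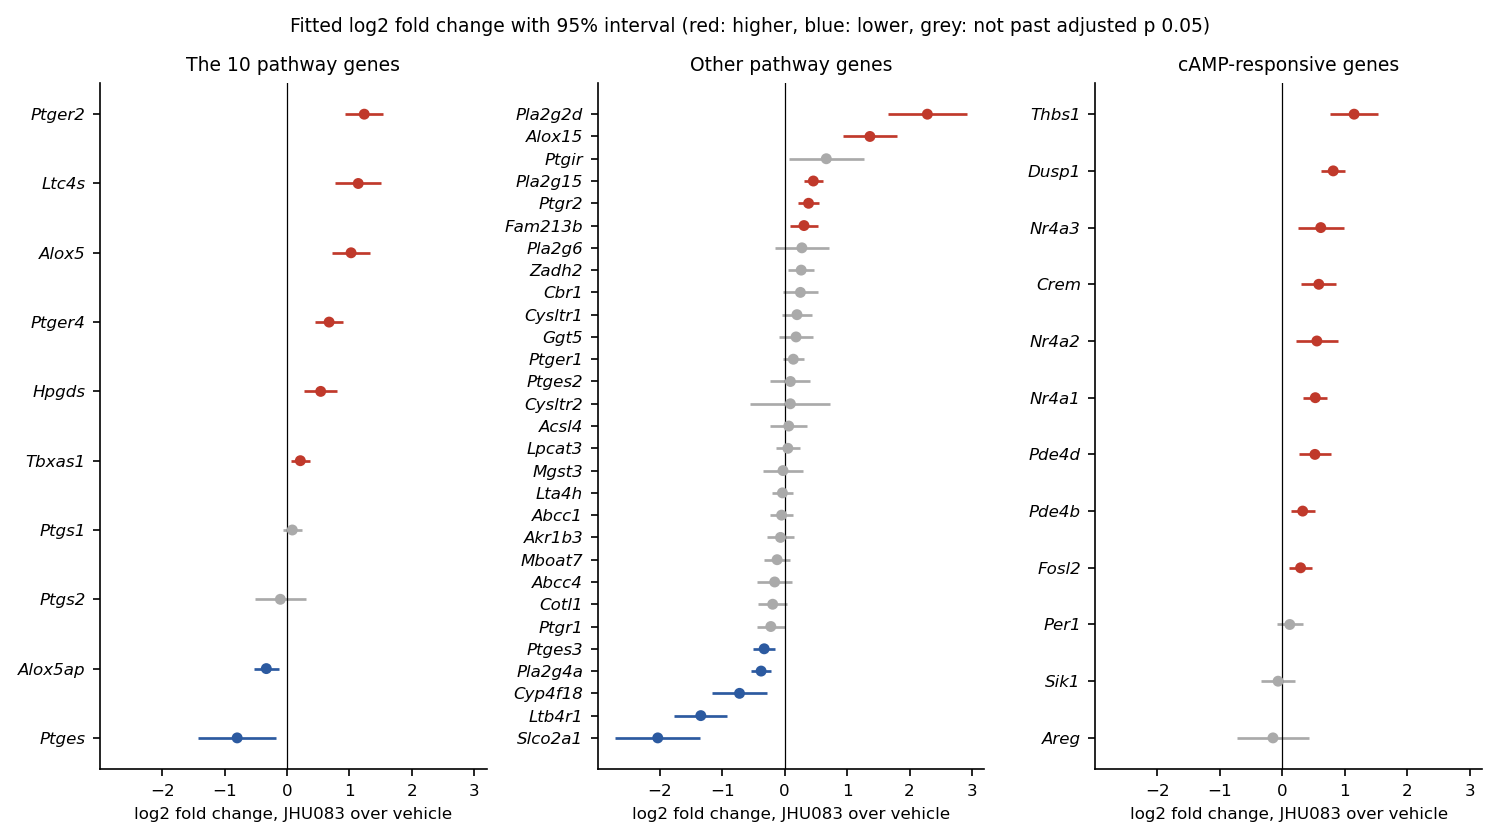
Log2 fold change of JHU083 over vehicle (horizontal axis) with its 95% interval for the 10 pathway genes (left), the 29 tested genes of the list of other pathway genes (middle) and the 12 cyclic AMP-responsive genes (right), from the edgeR fit over all 12500 loci. Red marks genes called higher, blue lower and grey not called. In the left panel Ptger2, Ltc4s and Alox5 lie above 1, Ptges lies at -0.80 with the widest interval, and the intervals of Ptgs1 and Ptgs2 include 0.

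Within both sets of libraries defined by the ribosomal loci, the direction was that of the pooled value for 9 of the 10 genes, all but Ptgs2. With the loci at 0 (3 vehicle and 2 JHU083 libraries), the log2 fold change was 1.10 for Ptger2, 0.70 for Ptger4, 1.14 for Alox5, 1.08 for Ltc4s, 0.27 for Tbxas1, 0.08 for Ptgs1, -0.23 for Alox5ap, -1.17 for Ptges and 0.10 for Ptgs2. With the loci above 0 (2 vehicle and 3 JHU083 libraries), it was 1.33 for Ptger2, 0.63 for Ptger4, 0.91 for Alox5, 1.25 for Ltc4s, 0.20 for Tbxas1, 0.10 for Ptgs1, -0.40 for Alox5ap, -0.57 for Ptges and -0.27 for Ptgs2. Ptger2, Ptger4, Alox5 and Ltc4s passed the test in both sets. Hpgds and Alox5ap passed with the loci above 0 and not with them at 0, a difference that was not itself tested, and Tbxas1 and Ptges passed in neither.

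**Figure D3:**
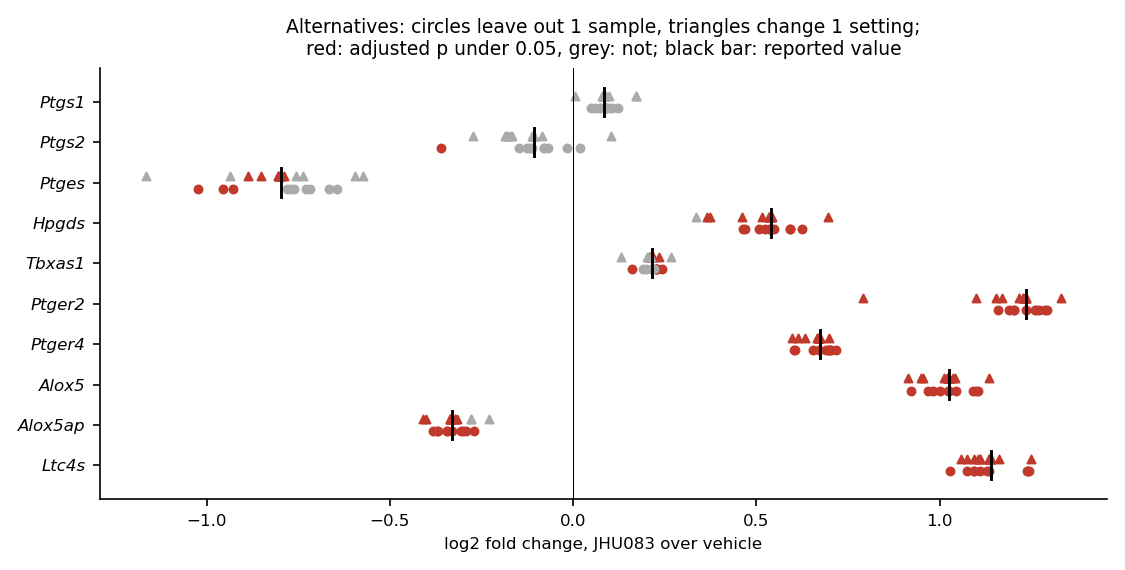
Log2 fold change of each of the 10 pathway genes under each alternative (horizontal axis). Circles leave out 1 sample, triangles change 1 setting, red marks an adjusted p under 0.05 and grey one above it, and the black bar is the reported value. Ptger2, Ptger4, Alox5 and Ltc4s are red under all 24 alternatives, whereas Ptges turns grey in 13 and Tbxas1 in 9.

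Per transcript length, Alox5ap had the highest level in both groups, at 368 ± 55.2 FPKM in vehicle and 302 ± 37.3 FPKM in JHU083 (SD, n = 5 each). In vehicle it was followed by Tbxas1 at 121 ± 5.46 and Ptgs1 at 121 ± 9.43 FPKM, whose ranges overlapped. Ltc4s came next at 73.0 ± 12.1 FPKM, then Hpgds at 45.3 ± 4.69 and Ptgs2 at 40.3 ± 3.84 FPKM, which overlapped, then Alox5 at 11.9 ± 2.82 and Ptger4 at 7.61 ± 0.841 FPKM, which also overlapped. Ptges at 2.52 ± 0.888 and Ptger2 at 1.17 ± 0.135 FPKM were the lowest and did not overlap. In JHU083 the order had changed at 2 places: Ltc4s, at 160 ± 42.8 FPKM, was second, overlapping with Tbxas1 at 141 ± 12.3 FPKM, which in turn overlapped with Ptgs1 at 137 ± 16.7 FPKM. Ptger2, at 2.76 ± 0.417 FPKM, was now above Ptges, at 1.37 ± 0.772 FPKM, without overlap. The ratio of the deposited count to FPKM, which stands for the transcript length the authors' program used, varied 3.36-fold between libraries for Ptges, so the FPKM of Ptges is less certain than that of the other genes. Between them Hpgds was at 58.7 ± 6.19, Ptgs2 at 37.6 ± 14.8, Alox5 at 23.8 ± 3.07 and Ptger4 at 12.2 ± 1.60 FPKM, where Ptgs2 overlapped with both Hpgds and Alox5.

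The list of other pathway genes held 49 genes, of which 47 matched a locus and 29 were tested. Among these 29, 5 were higher, 5 were lower and 19 did not pass, a share of 34.5% called beside 36.7% of all loci, and their median log2 fold change was 0.07. In 4 of them all JHU083 samples were above, and in 4 below, all vehicle samples. Over all loci tested these shares were 11.2% and 11.1%.

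Among 7 tested genes for arachidonate release and reacylation, 2 rose and 1 fell. Pla2g4a, the cytosolic phospholipase that supplies arachidonate to both branches, was at 73.3 ± 4.06 CPM in vehicle and 56.5 ± 4.80 CPM in JHU083, and fell by 0.38 on the log2 scale (SE 0.08, edgeR adjusted p = 0.0019). Pla2g2d, a secreted phospholipase, went from 0.754 ± 0.349 to 3.74 ± 0.813 CPM, or 2.29 higher on the log2 scale (SE 0.29, adjusted p = 6.08e-05). Pla2g15, the lysosomal phospholipase, went from 236 ± 16.5 to 324 ± 18.6 CPM (0.46, SE 0.07, adjusted p = 0.000213). In all 3 the groups did not overlap.

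Of the 5 other prostanoid synthases tested, Ptges3, the cytosolic prostaglandin E synthase that also serves as the p23 co-chaperone, fell from 137 ± 8.19 to 110 ± 11.6 CPM (log2 fold change -0.33, SE 0.08, edgeR adjusted p = 0.00706). Fam213b, a prostamide and prostaglandin F synthase, went from 35.5 ± 2.82 to 44.0 ± 7.10 CPM (0.31, SE 0.11, adjusted p = 0.034), a call lost without 4 of the 10 libraries in turn. Of 7 other prostanoid receptors, 2 had enough counts to test, Ptgir and Ptger1, and neither passed. The prostacyclin receptor Ptgir was at 0.958 CPM in vehicle and 1.52 CPM in JHU083 (log2 fold change 0.67, 95% interval 0.06 to 1.27, edgeR adjusted p = 0.0769), and passed without JHU083 replicate 3 at 0.81. The thromboxane receptor Tbxa2r had at most 4 fragments in any library.

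Prostaglandin transport and breakdown had 5 tested genes, of which 1 rose and 1 fell. Slco2a1, the prostaglandin uptake transporter, was at 26.9 ± 9.36 CPM in vehicle and 6.58 ± 3.04 CPM in JHU083, a log2 fold change of -2.03 (SE 0.32, edgeR adjusted p = 0.00027) with no overlap. The vehicle samples kept the same order in Slco2a1 (22.2, 37.9, 34.6, 25.0 and 14.9 CPM) as in the summed tumour epithelial markers (389, 610, 544, 435 and 282 CPM). The summed fibroblast markers had this order too, at 102, 165, 127, 116 and 78.0 CPM. Endothelial markers summed to 134 to 221 CPM in vehicle and 46.8 to 99.1 CPM in JHU083, a difference that rested on Pecam1: without it the sums overlapped, at 21.5 to 26.6 CPM and 23.8 to 29.9 CPM. The CD45+ sort is meant to remove these cell types, and the part of each in the Slco2a1 result was not tested. Ptgr2, which reduces the keto metabolites of prostaglandin E2, rose from 44.6 ± 3.06 to 58.2 ± 3.42 CPM (0.38, SE 0.08, adjusted p = 0.00152), and exons of Gm47484 on the other strand cover 1896 of its 5929 exonic bases.

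On the leukotriene B4 side, the hydrolase Lta4h, which competes with Ltc4s for leukotriene A4, was at 57.0 ± 2.15 CPM in vehicle and 55.6 ± 4.95 CPM in JHU083 and did not pass (log2 fold change -0.04, 95% interval -0.20 to 0.13, edgeR adjusted p = 0.745). Ltb4r1, the high-affinity leukotriene B4 receptor, was at 19.3 ± 2.09 CPM in vehicle, and at 5.52, 6.79, 6.34, 13.2 and 6.48 CPM in the JHU083 samples. All of these were below all vehicle samples, replicate 4 being the closest to them, and the log2 fold change was -1.34 (SE 0.20, edgeR adjusted p = 0.000174). Cyp4f18, which oxidises leukotriene B4, fell from 31.4 ± 1.74 to 19.1 ± 8.26 CPM (-0.72, SE 0.21, adjusted p = 0.0148), with JHU083 replicate 4 at 32.8 CPM inside the vehicle range and the other 4 JHU083 samples below that range. Ltb4r1 and Cyp4f18 are also known from neutrophils. The neutrophil markers without Csf3r, at 42.1 to 55.6 CPM in vehicle, were at 17.0, 23.2, 32.0, 71.8 and 29.9 CPM in JHU083, likewise highest in replicate 4 and lower in the other 4 samples, and S100a8 and S100a9 were called lower. Retnlg made up 51.5 of the 71.8 CPM in replicate 4. Csf3r itself was called higher, with all 5 JHU083 samples above all vehicle samples, and the sum of all neutrophil markers was not lower in JHU083. The part of neutrophil RNA in either result was not tested, and the sort is meant to remove Ly6G+ cells. Cysltr1, the receptor for the cysteinyl leukotrienes downstream of Ltc4s, was at 80.4 ± 10.4 and 92.1 ± 12.5 CPM and did not pass (0.20, 95% interval -0.04 to 0.43, adjusted p = 0.174), except without JHU083 replicate 3, where the value was 0.27.

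Alox15, the 12/15-lipoxygenase, was the only 1 of 4 other lipoxygenases with enough counts to test. It went from 7.26 ± 1.99 CPM in vehicle to 16.7, 17.6, 15.9, 28.1 and 15.7 CPM in the JHU083 samples, with no overlap and replicate 4 highest (log2 fold change 1.37, SE 0.20, edgeR adjusted p = 0.000173). Alox15 is also strongly expressed by eosinophils, whose summed markers were likewise highest in JHU083 replicate 4, and that part was not tested. In JHU083 replicates 1, 2, 3 and 5, where Alox15 was at 15.7 to 17.6 CPM, the eosinophil sum was 6.71 to 11.05 CPM.

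**Figure D4:**
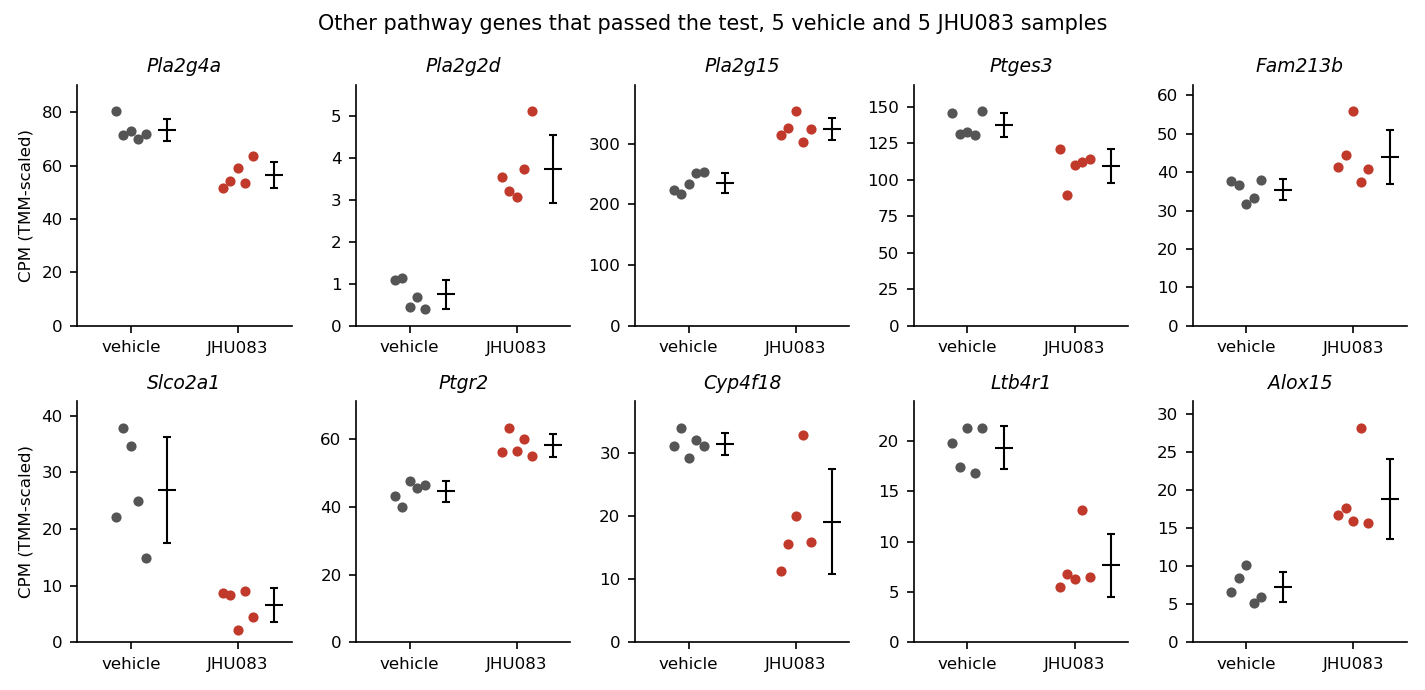
CPM (TMM-scaled, linear axes from 0) in the 5 vehicle and 5 JHU083 samples of the 10 genes from the list of other pathway genes that passed the test. Points are samples, with the mean and SD beside them, and in 8 of the 10 panels, all but Fam213b and Cyp4f18, the groups do not overlap. The panels were picked by the test on these same samples, so this count follows in part from that choice. Over all 29 tested genes of the list, JHU083 lay above in 4 and below in 4, beside 11.2% and 11.1% of all loci.

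EP2 and EP4 signal through cyclic AMP, so 12 genes known to respond to it were counted as a list. All 12 were tested: 9 were higher and 0 lower in JHU083, beside 18.4% and 18.3% of all loci. The count of 0 lower also held at an unadjusted p under 0.05, with DESeq2 and with limma-voom. The median log2 fold change was 0.52, beside 0.01 over all loci. In 4 of the 12 all JHU083 samples were above all vehicle samples, beside 11.2% of all loci tested. In 0 of the 12 all were below, beside 11.1%. Many of these genes also respond to other signals and to handling of cells. The list was chosen with earlier results of these data known, and a link to EP2 or EP4 was not tested. Thbs1, encoding the matrix protein thrombospondin 1, went from 90.7 ± 16.7 to 201 ± 64.7 CPM (log2 fold change 1.15, SE 0.18, edgeR adjusted p = 0.000291). Dusp1, a phosphatase of MAP kinases, went from 328 ± 19.5 to 578 ± 77.1 CPM (0.81, SE 0.09, adjusted p = 1.58e-05), and the nuclear receptor gene Nr4a1 from 606 ± 27.5 to 873 ± 116 CPM (0.53, SE 0.09, adjusted p = 0.000511). Nr4a3 (log2 fold change 0.62), the repressor gene Crem (0.58), Nr4a2 (0.55), the phosphodiesterase genes Pde4d (0.52) and Pde4b (0.33), and Fosl2 (0.29) also passed, at edgeR adjusted p-values from 0.00347 to 0.0152. Of these, Fosl2 lost its call in 6 of 14 other settings, Pde4b and Nr4a2 in 4 each and Nr4a3 in 3. Per1 (0.12), Sik1 (-0.07) and Areg (-0.15) did not. Within the libraries with the ribosomal loci at 0, 4 of the 12 passed, and 5 within the others.

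The marker lists that stand beside these results moved as follows. All 8 tumour epithelial genes fell, and of 6 fibroblast genes, which summed to 78.0 to 165 CPM in vehicle and 24.1 to 97.4 CPM in JHU083, 3 fell. Of 5 endothelial genes tested, Pecam1 fell (log2 fold change -1.52) and Tie1 rose (0.56). Pecam1 made up most of the sum except in JHU083 replicate 1, where the sum was 46.8 CPM with it and 24.2 CPM without it. Monocyte genes summed to 705 to 888 CPM in vehicle and 591 to 863 CPM in JHU083, with Chil3 higher and Vcan and F13a1 lower among 6 tested. Among 6 neutrophil genes tested, Csf3r was higher, and S100a8 and S100a9 lower. Lymphocyte genes summed to at most 2.51 CPM in any library.

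**Figure D5:**
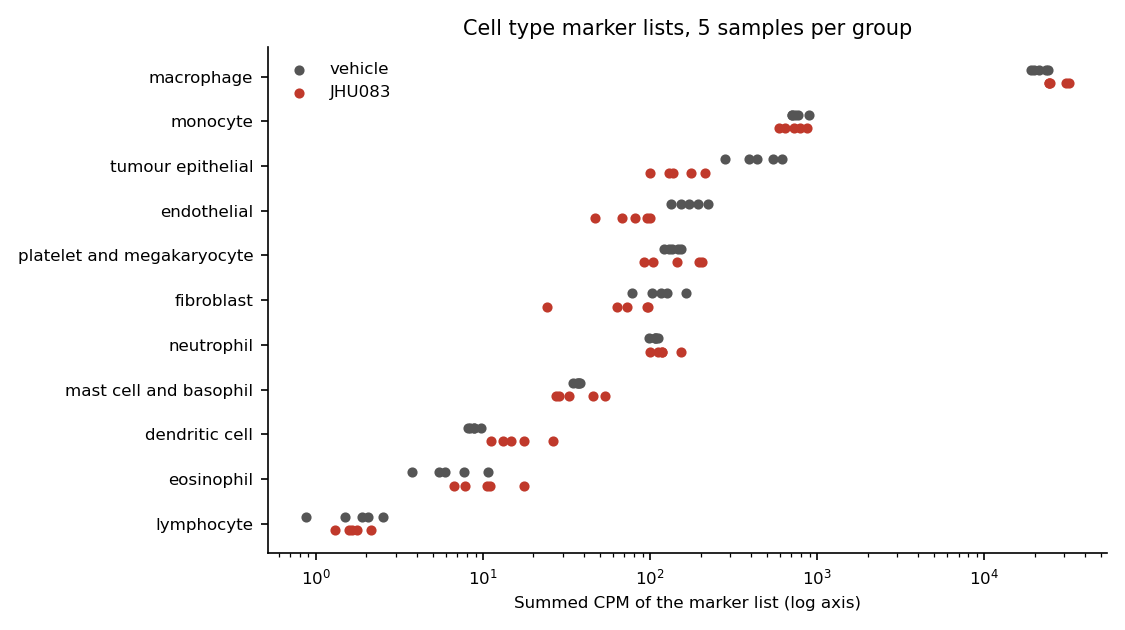
Summed CPM of each cell type marker list in each sample (logarithmic axis), vehicle and JHU083. The macrophage sums are the highest of all lists in every sample. The tumour epithelial and endothelial sums are lower in every JHU083 sample than in any vehicle sample, and the eosinophil, mast cell and basophil, neutrophil, platelet and monocyte sums overlap between groups.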

How the data were processed

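RNA of 5 vehicle and 5 JHU083 samples of sorted tumour macrophages was sequenced. Per the labels' protocols, polyadenylated RNA was fragmented and randomly primed, and libraries were sequenced from both ends. The submitters' processing notes name bcl2fastq 2.17.1.14, FastQC 0.11.2, TopHat2 2.1.1 and GRCm38. The counting program and annotation are not given in the sources used here.

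In their tables the authors deposited a column headed as raw counts per locus, which holds expected counts: whole fragments multiplied by a step per sample (0.888 to 1.17). Dividing by the step gave whole numbers, within 0.01 fragment plus the rounding of the deposited digits, for 99.8% to 99.9% of values, and the results were rounded. The other column, which the authors deposited as normalized, was read from its values as FPKM. It was used for levels between genes and in an alternative. The 1 locus without a symbol (0.00132% to 0.00209% of fragments) was left out. None of the genes described shares a locus with another symbol.

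Loci passing filterByExpr were fitted together with edgeR 4.0.16 (R 4.3.3): TMM, quasi-likelihood F-test, no covariate, Benjamini-Hochberg over 12500 loci, threshold 0.05. Adjusted p-values are from this test where no other tool is given. The SE was taken as the size of the log2 fold change over the root of F. CPM use TMM-scaled totals. Alternatives used DESeq2 1.42.0, limma 3.58.1 (voom, or log2 FPKM), other scalings and filters, the deposited counts rounded, subsets of libraries, and each sample left out. On simulated data with 200 of 12500 loci changed by 1 on the log2 scale, 84.5% were recovered, 8.15% of calls were false, and 0 loci were called with no change. The simulation changed fewer loci than were called in the data and used 1 size of change, so these rates do not cover smaller changes.

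Gene positions are from GENCODE M21 (GRCm38) by symbol, and promoters from RefSeq. The 10 genes, the other lists and the tests were chosen with earlier results of these data known. All 10 genes are named, the genes of the other lists are named where they passed or have a role next to one of the 10, and likeness was measured for the genes of the 10 with the largest increase and decrease. Dpep1 and Dpep2 were not analysed here. Intervals cover the spread between samples, and the limit set by 3 fragments covers counting error only.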

Additional observations from a re-analysis of the deposited data

Results flagged for a closer look

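In 7 of 64 groups of 5 samples examined (1 gene in 1 group each), a single sample lay far from the other 4: its gap to the nearest of them, divided by the range of the group, was above Dixon's critical value of 0.71. Chance alone gives about 3.2 such groups. Of the 7, 4 concerned JHU083 replicate 4 as the highest sample.

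For Ptges, JHU083 replicate 4 was at 2.22 log2 CPM and the other 4 JHU083 samples at 1.21 to 1.47 (ratio 0.7425). For Ltb4r1 the same replicate was at 3.73 and the others at 2.50 to 2.79 (0.7641). For Alox15 it was at 4.82 and the others at 3.98 to 4.15 (0.7986), and for Dusp1 at 9.48 with the others at 9.03 to 9.13 (0.7665). Tbxas1 was highest in JHU083 replicate 3, at 8.29 log2 CPM against 7.97 to 8.07 (0.7118). Ptger4 was lowest in vehicle replicate 4, at 4.39 against 4.67 to 4.78 (0.7179), and Lta4h lowest in vehicle replicate 2, at 5.74 against 5.84 to 5.88 (0.7242).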

How the results depend on the processing

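Ptger2, Ptger4, Alox5 and Ltc4s kept their direction and passed the test under all 24 alternatives, 10 of which each left out 1 sample. Their log2 fold changes ranged from 0.79 to 1.33, from 0.60 to 0.72, from 0.91 to 1.14 and from 1.03 to 1.25. The number of the 10 pathway genes called higher, 6, was 4 to 6 under all alternatives. The number called lower, 2, was 1 with limma-voom, 0 with limma on log2(FPKM + 1) or log2(FPKM + 0.1), 0 with only the libraries with Rn18s-rs5 and Gm42418 at 0 and 1 with only those above 0, and 1 to 2 when a sample was left out. Ptges lost its call in 13 of the 24 alternatives and Tbxas1 in 9, among them the fit with no filter on low counts. Ptgs2 reversed to 0.10 in the libraries with the loci at 0 and to 0.019 without JHU083 replicate 3, and Lta4h to 0.012 in the libraries with the loci at 0. Ptgs2 passed at -0.36 without JHU083 replicate 1. The causes were not tested.

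Of the other pathway genes, 5 called higher became 4 to 8 when a sample was left out (8 without JHU083 replicate 3), and 5 called lower became 3 in the libraries with the loci at 0, and 7 both with scaling by library totals only and without JHU083 replicate 3. Of the cyclic AMP-responsive genes, 9 called higher became 4 and 5 in the sets with the loci at 0 and above 0. In these sets, with fewer samples, 531 and 1329 of all loci were higher and 585 and 1522 lower.

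The replicate numbers did not pair the samples: deviations of same-numbered samples from their group means correlated at -0.57 to 0.09, and in 0 of 5 pairs was the correlation with the own number the highest. With the replicate block, 1612 loci were called higher and 1757 lower, and 5 of the 10 pathway genes higher and 1 lower. Among the 10 pathway genes, Ptges (29 to 91 fragments per library) and Ptger2 (49 to 193) rested on low counts. Of the other genes named, Pla2g2d had 5 to 78 and Ptgir 10 to 26.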

Other observations

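Hpgd, which encodes the main enzyme of prostaglandin E2 breakdown, had too few fragments to pass the filter on low counts. It had 0, 0, 1, 2 and 0 fragments in the vehicle libraries and 49, 12, 14, 26 and 10 in the JHU083 libraries, with no overlap. With no filter, edgeR gave an adjusted p of 4.35e-08. Hpgd lies outside the rule for naming genes and was chosen after its values were seen.

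The 3 loci whose standardised log2 CPM over the 10 samples lay closest to those of Ptger2 were Cd300lb, Havcr2 and Gpr171, at root mean square distances of 0.191, 0.212 and 0.230 among 9469 loci. Closest to Ptges were Sgms2, Ets1 and Zfp503, at 0.257, 0.288 and 0.345 among 9470 loci. The samples, and with them the 2 groups, are shared by all of these profiles.

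The ratio of the deposited expected count, before division by the step, to FPKM varied between libraries from 23.1 to 32.5 for Hpgds (1.41-fold), and by 1.22-fold for Ptgs1, 1.22-fold for Alox5ap and 1.17-fold for Alox5. For Ptgs2, Ptger2, Ptger4, Tbxas1 and Ltc4s it varied by at most 1.03-fold.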
